A study of Homo sapiens with 10 samples.

Results

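The insulin and insulin-like growth factor (IGF) receptor pathway was followed in MEG-01 cells, a human megakaryoblastic leukaemia line used as a cultured stand-in for the cells that make platelets. The 9 genes described are the receptors IGF1R, INSR and IGF2R, the receptor substrates IRS1 and IRS2, the binding proteins IGFBP2 and IGFBP4, the receptor-binding adaptor GRB10 and the phosphatidylinositol 3-kinase (PI3K) subunit PIK3R1. They were chosen by name, and every non-control probe whose RefSeq accession led to one of these symbols was taken. This gave 11 probes for the 9 genes, out of 42405 probes and 35267 genes on the array. In counts of all genes, here and below, a probe with no matched symbol was counted under its array identifier. Of these, 9 probes for 8 genes were bright enough to be tested.

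Cells of 1 line were nucleofected with 200 nM of a double-stranded precursor of miR-1225-3p or with a scrambled control precursor, and RNA was taken after 24 h. Each group held 5 biological replicates, 1 one-colour gene expression array each, and both groups went through nucleofection. The question was which transcripts differed when this microRNA, one that the study followed in platelets of patients with sickle cell disease, was added. The mature microRNA itself was not read on these arrays, so its level in each culture is not given here.

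Insulin and the IGFs are secreted ligands that bind receptor tyrosine kinases at the cell surface, encoded by INSR and IGF1R. The activated receptors phosphorylate docking proteins such as IRS1 and IRS2, which recruit PI3K and, through it, AKT and the growth kinase mTOR, while a second branch runs through GRB2, RAS and the MAP kinases. IGF2R has no kinase activity and carries IGF2 and lysosomal enzymes into the cell, the IGF-binding proteins hold the ligands outside it, and GRB10 binds the activated receptors and dampens them. Platelets and their precursors carry receptors for both insulin and IGF1.

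The transfected microRNA is shown because its first bases set which messages it can pair with. The capitals mark the seed, bases 2 to 8 from the 5′ end, and the sequence is that of RefSeq at chr16:2090195-2090216 on the minus strand (GRCh38.p14).
hsa-miR-1225-3p: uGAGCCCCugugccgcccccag
Among 2370 mature human microRNA names in the RefSeq table, 1 carried this seed, miR-1225-3p itself. Pairing of the seed with the messages described here was not tested.

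On 4 of the 5 arrays with miR-1225-3p the genes differed broadly from the scrambled arrays, and on replicate 5 they differed little. On the axis that joins the group means, replicate 5 lay at 0.046 of the group difference, the other 4 miR-1225-3p arrays at 0.87 to 1.6, and the scrambled arrays at -0.0576 to 0.161. On the first principal component, which held 69.8% of the variance, it lay at 63.8, within the scrambled range of 57.1 to 82.9, while the other 4 lay between -147 and -57.2. All 10 arrays were kept under their labels, and the results below are also given without replicate 5. Of 15 listed megakaryocytic markers 10 had a kept probe, ITGA2B, GATA1, NFE2 and PPBP among them, while PF4, VWF and SELP, for example, had none. The mean log2 signal of those 10 genes ran from 7.86 to 8.51 with miR-1225-3p and from 8.62 to 8.68 in the scrambled group, and 3 of them fell (ITGA2B, NFE2 and FLI1) and none rose, where 18.0% of all genes fell and 16.8% rose. With arrays scaled by their 75th percentile ITGA2B no longer passed (-1.08, adjusted p = 0.0533) and NFE2 was 0.13 higher. Without replicate 5, 6 of the 10 fell and 1 rose, where 29.0% of all genes fell and 26.3% rose. The same shares apply to the other marker lists below. Of 10 other blood cell markers tested, CD3E, FCGR3A and MPO rose and none fell, while CD4 (-1.45), CD79A (-1.47), CD8A (-1.02) and ELANE (-0.94) were lower short of the threshold, and without replicate 5, 4 rose and 4 fell. The list's mean ran from 7.46 to 7.92 with miR-1225-3p and from 7.44 to 8.13 in the scrambled group. Of 5 stromal and epithelial markers EPCAM rose and none fell, and without replicate 5, 1 rose and 1 fell. Their part in the results below was not tested. Spots well above background made up 41.95% to 53.85% of an array with miR-1225-3p and 43.09% to 61.18% of a scrambled array.

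With miR-1225-3p the receptors IGF1R and IGF2R and the binding protein IGFBP4 were lower and the adaptor GRB10 was higher. IGFBP4 showed the largest change of the 9 probes, 5.01-fold lower, followed by IGF2R at 3.01-fold and IGF1R at 2.18-fold lower. GRB10 was 1.5-fold and 1.82-fold higher on its 2 probes. INSR, IRS2, IGFBP2 and PIK3R1 did not pass the test, and IRS1 was not above background on any array. In all, 5 of the 9 tested probes passed limma's moderated test at an adjusted p of 0.05, 3 lower and 2 higher. Over all 20648 kept probes 18.7% were lower and 16.3% higher at the same threshold, so with 9 probes the count says little beyond the named genes. The groups did not overlap for 4 of the 9 probes (IGF1R, IGFBP4 and both of GRB10), against 12.6% of all kept probes. Without replicate 5, 7 of the 9 probes passed, 3 lower and 4 higher, and INSR and IRS2 were the added ones. Over all kept probes 30.5% were then lower and 25.3% higher. Without miR-1225-3p replicate 2 or replicate 3, 3 of the 9 probes passed. Of all 20648 kept probes 2280 and 2555 then passed, against 7225 with all arrays.

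**Figure D1:**
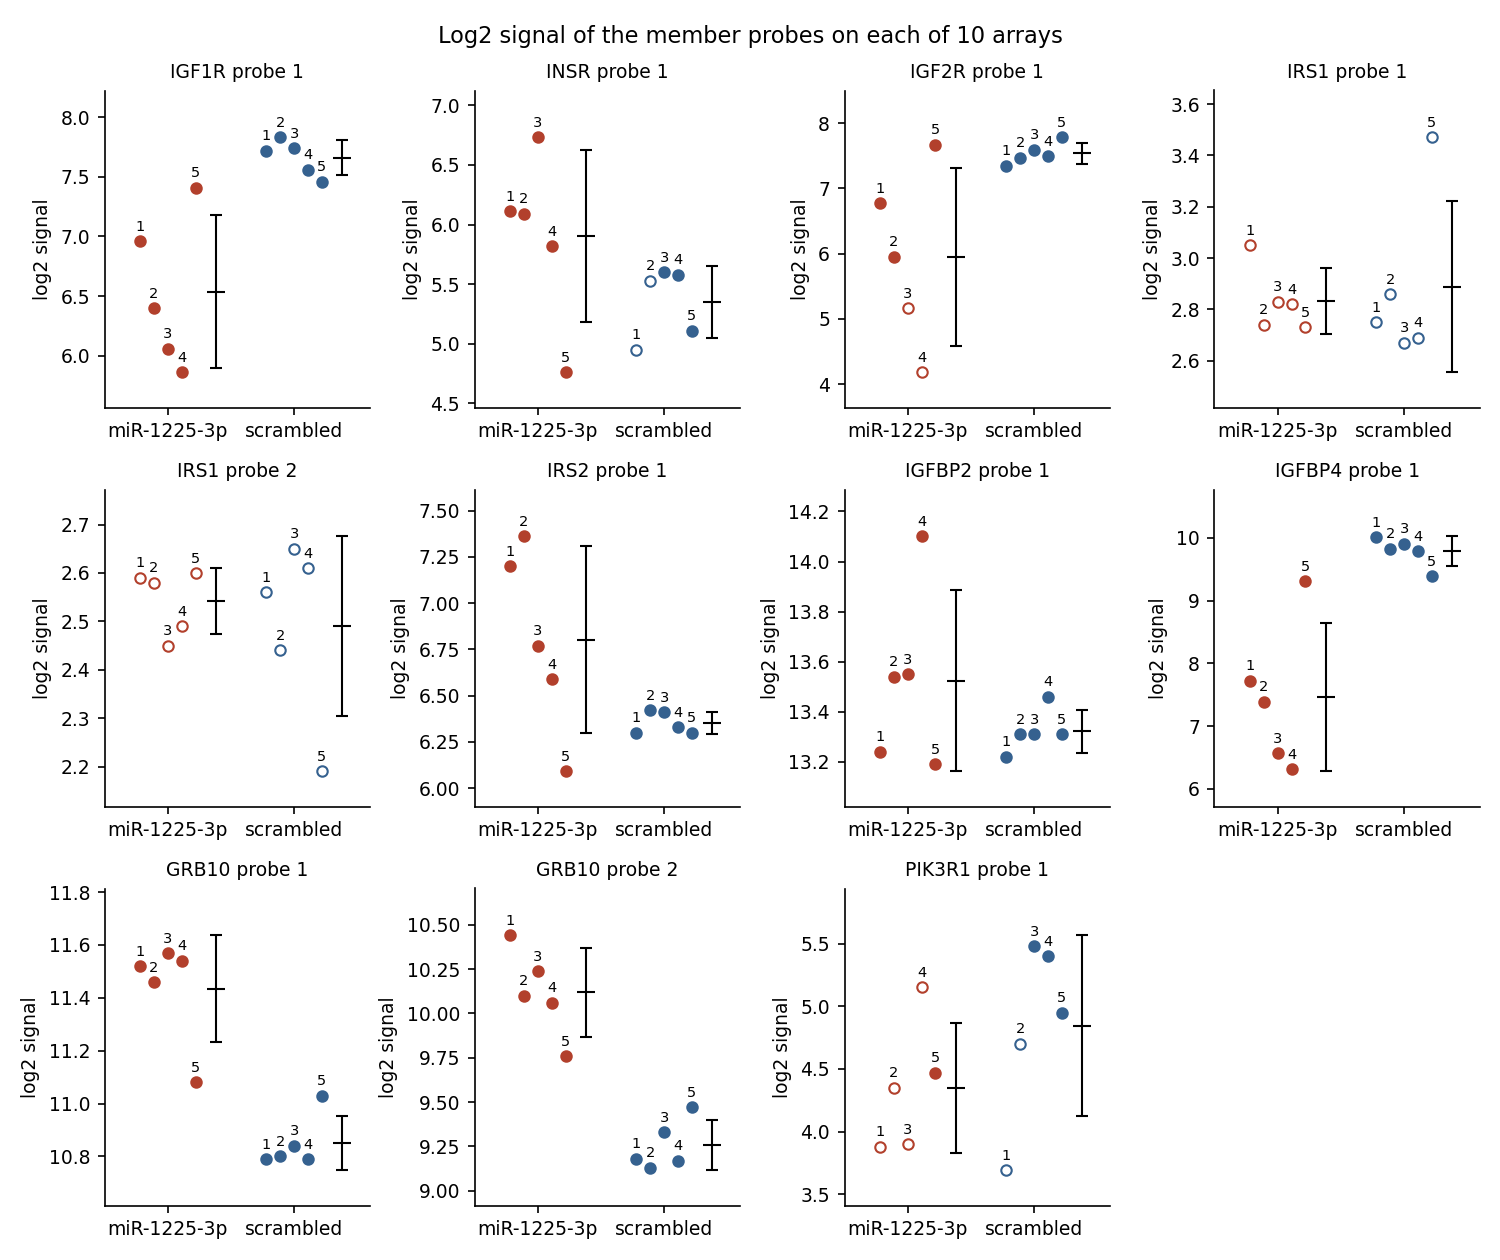
Log2 signal (vertical axis, arbitrary intensity units after cyclic loess normalization) of the 11 probes of the 9 genes on each array. Points carry the replicate number, open points were not well above background, and the bars give the mean ± SD of each group (n = 5); replicate 5 of miR-1225-3p lies nearest to the scrambled arrays for IGF1R, IGFBP4 and both GRB10 probes, and each vertical axis has its own range that does not start at 0.

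IGF1R encodes the receptor that IGF1 activates. Its probe read a log2 signal of 6.96, 6.40, 6.06, 5.86 and 7.41 on miR-1225-3p replicates 1 to 5, and of 7.72, 7.83, 7.74, 7.56 and 7.46 on scrambled replicates 1 to 5. Every array with miR-1225-3p was below every scrambled array, but the highest of the former, replicate 5, and the lowest of the latter, also a replicate 5, were 7.41 and 7.46. The group means were 6.54 ± 0.64 and 7.66 ± 0.149 (SD, n = 5 each). The difference was -1.12 on the log2 scale (SE 0.277, 95% interval -1.74 to -0.51; limma adjusted p = 0.019). The two-sided exact permutation p was 0.00794, the smallest that 5 arrays against 5 can give. Without replicate 5 the difference was -1.34 (adjusted p = 0.000817), a 2.53-fold lower signal.

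The call for IGF1R was lost by narrow margins without miR-1225-3p replicate 2 (-1.09, adjusted p = 0.0513) or replicate 3 (adjusted p = 0.0504), and the difference was -0.55 with normexp background correction (adjusted p = 0.0192). The arrays came from 2 slides, with miR-1225-3p replicates 1 and 2 beside scrambled replicates 1, 3 and 5 on the first. Within that slide IGF1R differed by -0.96 (adjusted p = 0.0393). Within the second, where replicate 5 is 1 of 3 arrays with miR-1225-3p, it differed by -1.25 (adjusted p = 0.501), and by -1.73 without that array (adjusted p = 0.0137). IGF1R is read by 1 probe, and the study itself listed the gene from these arrays, so its call is not independent evidence of a direction. The study also lists a quantitative PCR assay for IGF1R. Of its candidate genes, those it reported as differing by PCR in the transfected cells were PBXIP1, PLAGL2 and PHF20L1, without IGF1R.

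INSR encodes the insulin receptor, the closest relative of IGF1R. Its log2 signal was 6.11, 6.09, 6.73, 5.82 and 4.76 with miR-1225-3p, and 4.95, 5.53, 5.60, 5.58 and 5.11 in the scrambled group, replicates 1 to 5 in each. On 4 arrays with miR-1225-3p INSR was above all scrambled arrays, and on replicate 5 it was below all of them. The difference over all arrays was 0.55 (SE 0.323, 95% interval -0.17 to 1.27; limma adjusted p = 0.191, exact permutation p = 0.159). Without replicate 5 it was 0.84 (95% interval 0.35 to 1.33, adjusted p = 0.00954). INSR was dim, well above background on 5 arrays with miR-1225-3p and on 3 scrambled arrays.

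IGF2R, the non-kinase receptor that clears IGF2, read 6.77, 5.95, 5.16, 4.18 and 7.67 with miR-1225-3p and 7.35, 7.47, 7.59, 7.49 and 7.78 in the scrambled group. The first 4 arrays lay below all scrambled ones, by very unequal amounts, and replicate 5 lay inside the scrambled range. Replicates 3 and 4 were not well above background, so the signal there is a weak reading. The means were 5.94 ± 1.36 and 7.54 ± 0.163, a difference of -1.59 (SE 0.548, 95% interval -2.81 to -0.38; limma adjusted p = 0.0461, exact permutation p = 0.0397). Without replicate 5 the difference was -2.02 (adjusted p = 0.00389). The call over all arrays was fragile: it was lost in 15 of 28 alternatives, among them every one that left out a single array other than miR-1225-3p replicate 1 or 5 (adjusted p from 0.0748 to 0.104).

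**Figure D2:**
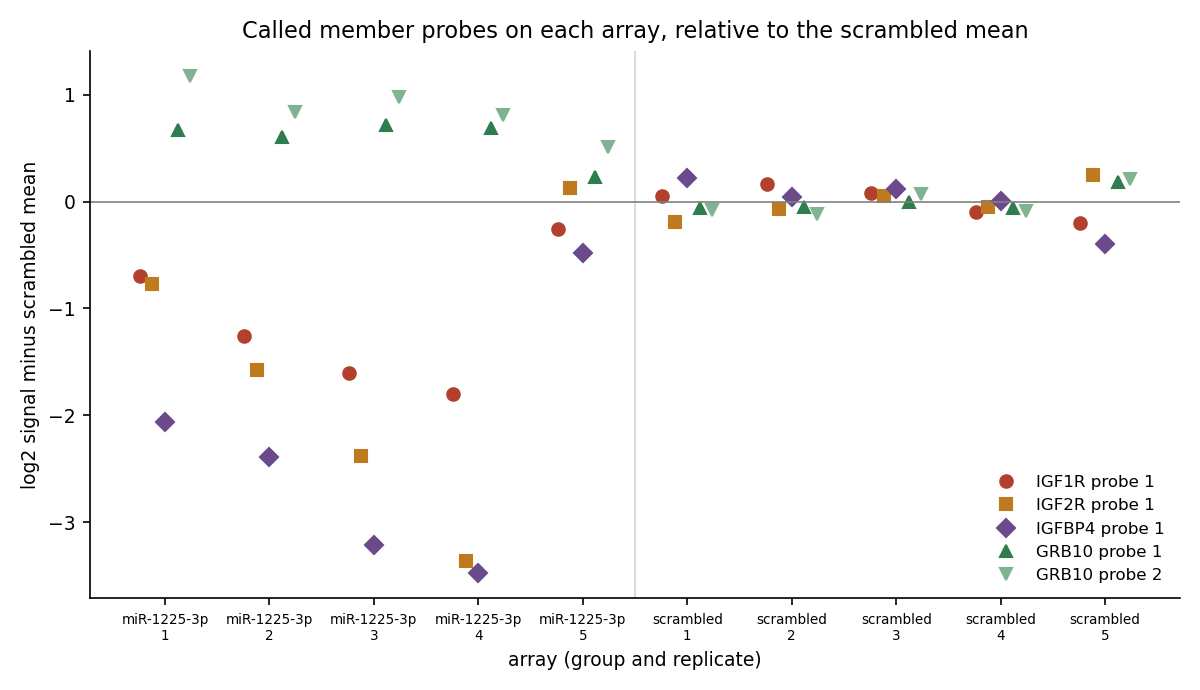
Log2 signal minus the scrambled mean (vertical axis) of the 5 probes that passed the test, on each array (horizontal axis); a symbol is 1 probe on 1 array. IGF1R, IGF2R and IGFBP4 are lowest on miR-1225-3p replicate 4 and nearest to the scrambled mean on replicate 5, and both GRB10 probes are above 0 on all 5 miR-1225-3p arrays.

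IGFBP4 encodes a secreted protein that binds IGFs and mostly limits their action. Its signal was 7.72, 7.39, 6.57, 6.31 and 9.31 on miR-1225-3p replicates 1 to 5, and 10.01, 9.83, 9.91, 9.79 and 9.39 on the scrambled ones. All 5 arrays with miR-1225-3p were below all scrambled arrays, replicate 5 by the small step from 9.31 to 9.39 and the other 4 by far more. The group means of 7.46 ± 1.18 and 9.78 ± 0.238 differed by -2.32 (SE 0.486, 95% interval -3.40 to -1.25; limma adjusted p = 0.0149, exact permutation p = 0.00794). Without replicate 5 the difference was -2.79 (adjusted p = 0.000109), a 6.9-fold lower signal. Within the first slide IGFBP4 differed by -2.21 (adjusted p = 0.0123), and within the second by -2.41 (adjusted p = 0.501), or by -3.37 without replicate 5 (adjusted p = 0.00689).

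IGFBP2, another binding protein, stood at a high signal in both groups. It read 13.24, 13.54, 13.55, 14.10 and 13.19 with miR-1225-3p and 13.22, 13.31, 13.31, 13.46 and 13.31 in the scrambled group. The groups overlapped, with miR-1225-3p replicates 2, 3 and 4 above all scrambled arrays and replicates 1 and 5 not. The difference was 0.20 (SE 0.177, 95% interval -0.19 to 0.59; limma adjusted p = 0.377). Its size depended on the scaling, at 0.79 when arrays were scaled by their 75th percentile (adjusted p = 0.0525) and 1.01 when replicate 5 was also left out (adjusted p = 0.00494). With cyclic loess and without replicate 5 it was 0.28 (adjusted p = 0.176).

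GRB10 was the one of the 9 genes to pass as higher, and both of its probes did so. Probe 1 read 11.52, 11.46, 11.57, 11.54 and 11.08 with miR-1225-3p and 10.79, 10.80, 10.84, 10.79 and 11.03 in the scrambled group. Probe 2 read 10.44, 10.10, 10.24, 10.06 and 9.76 with miR-1225-3p and 9.18, 9.13, 9.33, 9.17 and 9.47 in the scrambled group. On both probes every array with miR-1225-3p was above every scrambled array, and the closest arrays of each group were again the replicates 5. Probe 1 differed by 0.58 (SE 0.134, 95% interval 0.29 to 0.88; limma adjusted p = 0.0165) and probe 2 by 0.86 (SE 0.15, 95% interval 0.53 to 1.19; adjusted p = 0.0144). For each, the exact permutation p was 0.00794. Without replicate 5 the differences were 0.67 (adjusted p = 0.000594) and 0.95 (adjusted p = 0.000311). Scaling by the 75th percentile gave larger values, 1.06 and 1.23. Within the first slide probe 1 no longer passed (0.60, adjusted p = 0.0562) and probe 2 did (0.94, adjusted p = 0.0278).

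The receptor substrates gave little. IRS2 read 7.20, 7.36, 6.77, 6.59 and 6.09 with miR-1225-3p against 6.30, 6.42, 6.41, 6.33 and 6.30 in the scrambled group. The first 4 arrays were above all scrambled arrays and replicate 5 was below them, as for INSR. IRS2 differed by 0.45 (SE 0.224, 95% interval -0.046 to 0.95; limma adjusted p = 0.13, exact permutation p = 0.103), and by 0.63 without replicate 5 (adjusted p = 0.0102). IRS1 was not well above background on any of the 10 arrays with either of its probes, whose log2 signals lay between 2.67 and 3.47 and between 2.19 and 2.65, and no fold is given. PIK3R1, the main regulatory subunit of PI3K, was well above background on 1 array with miR-1225-3p and 3 scrambled arrays. It read 3.88, 4.35, 3.90, 5.15 and 4.47 against 3.69, 4.70, 5.48, 5.40 and 4.95, the groups overlapped widely, and the difference of -0.49 (95% interval -1.30 to 0.32; adjusted p = 0.294) stayed short of the threshold without replicate 5 (-0.52, adjusted p = 0.289).

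**Figure D3:**
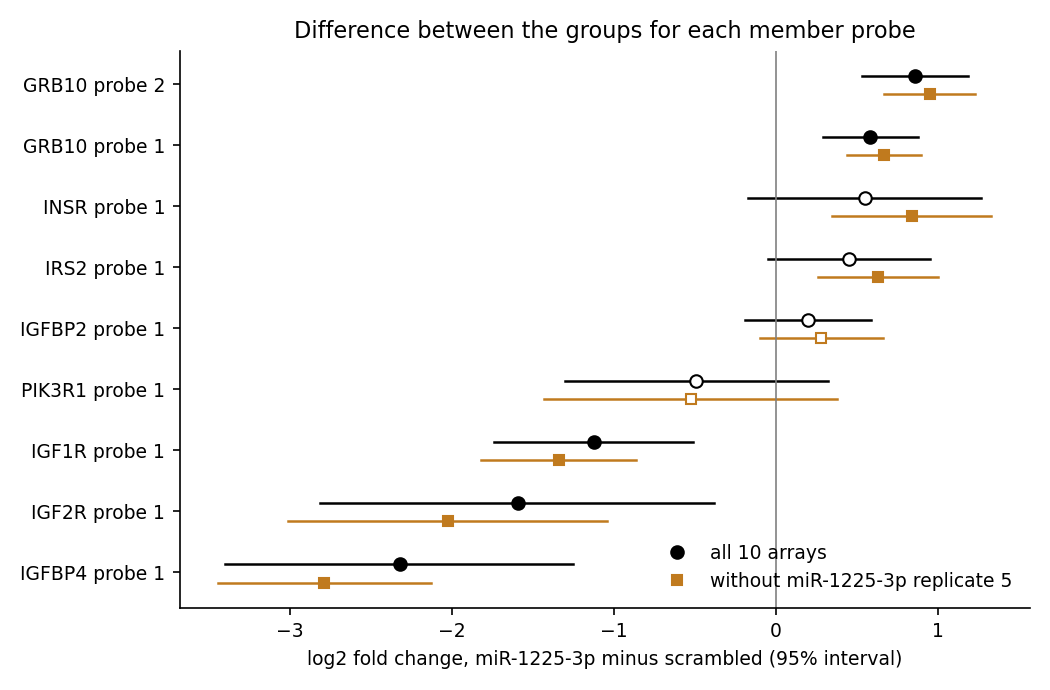
Log2 fold change, miR-1225-3p minus scrambled (horizontal axis), with its 95% interval for each of the 9 tested probes; circles use all 10 arrays, squares leave out miR-1225-3p replicate 5, and filled symbols have a limma adjusted p under 0.05. IGFBP4, IGF2R, IGF1R and both GRB10 probes are filled in either case, and INSR and IRS2 are filled without replicate 5.

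The signal on replicate 5 lay at different shares of the difference for different genes. For IGF1R it lay at 19.1% of the mean difference of the other 4 arrays, for IGFBP4 at 17.1%, and for the GRB10 probes at 33.8% and 53.4%. For IGF2R it lay at -6.52%, and for INSR, IRS2 and IGFBP2 at -70.4%, -41.6% and -45.8%, that is, on the other side of the scrambled mean. For some probes scrambled replicate 5 deviated nearly as far from the scrambled mean in the same direction. For IGF1R it did so by -0.20, against -0.26 on miR-1225-3p replicate 5. The values were -0.40 against -0.48 for IGFBP4 and 0.18 against 0.23 for GRB10 probe 1. For GRB10 probe 2 it deviated by 0.21 against 0.51. It also deviated by less for INSR (-0.24 against -0.59), IRS2 (-0.054 against -0.26) and IGFBP2 (-0.013 against -0.13). For IGF2R it deviated by more (0.25 against 0.13), and for PIK3R1 in the other direction (0.11 against -0.37). The shares rest on 1 array and have no error of their own.

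The 3 genes that were lower also ordered the arrays alike. From the lowest signal to the highest, IGF1R, IGF2R and IGFBP4 each gave miR-1225-3p replicates 4, 3, 2, 1 and 5. That order was common: 25.4% of the 3857 probes that were lower and measured on all arrays had it, and the first principal component gives it too. Over the 10 arrays Pearson's r of IGF1R was 0.984 with IGFBP4, 0.952 with IGF2R, -0.922 with GRB10 and -0.7 with INSR. These values come from the same libraries and slides and describe them, with no test. Once each group's mean was taken away they were 0.957, 0.932, -0.765 and -0.593. The genes whose profile lay closest to that of IGF1R were TPBG (r = 0.996), ALDH1A1 (0.994), ELL (0.993), KCTD20 (0.992) and TTC3 (0.991), and 12.6% of the 8860 genes compared had r above 0.9.

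The stretches of 250 bases before the transcript starts of the 3 genes that were lower together are shown for what they share, from the RefSeq table (GRCh38.p14, all on the plus strand). The capitals mark 3 short motifs found on either strand. The GC box, which members of the SP family of transcription factors are known to bind, was searched as GGGCGG, with overlapping matches counted separately. The E-box, a site of basic helix-loop-helix factors, was searched in its palindromic form, CACGTG. The TATA box, a core promoter element that only some genes have, was searched as TATAAA.
IGF1R, chr15:98648289-98648538: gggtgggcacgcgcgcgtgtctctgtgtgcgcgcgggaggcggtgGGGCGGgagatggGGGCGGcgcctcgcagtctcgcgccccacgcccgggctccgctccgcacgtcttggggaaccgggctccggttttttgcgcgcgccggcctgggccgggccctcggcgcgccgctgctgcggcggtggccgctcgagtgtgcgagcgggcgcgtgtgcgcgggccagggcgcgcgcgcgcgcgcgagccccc
IGF2R, chr6:159968832-159969081: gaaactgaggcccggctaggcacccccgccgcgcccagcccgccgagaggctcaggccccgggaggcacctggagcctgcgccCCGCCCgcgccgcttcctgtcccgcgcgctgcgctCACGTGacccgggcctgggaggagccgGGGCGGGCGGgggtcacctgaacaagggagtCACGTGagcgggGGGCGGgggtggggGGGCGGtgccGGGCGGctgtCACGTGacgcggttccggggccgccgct
IGFBP4, chr17:40443200-40443449: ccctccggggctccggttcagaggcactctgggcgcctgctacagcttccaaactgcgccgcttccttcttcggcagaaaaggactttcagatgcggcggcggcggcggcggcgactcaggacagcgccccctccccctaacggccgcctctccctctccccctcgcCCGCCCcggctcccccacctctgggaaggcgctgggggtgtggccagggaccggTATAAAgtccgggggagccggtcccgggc
All 3 were rich in G and C, at 81.2% for IGF1R, 79.2% for IGF2R and 71.6% for IGFBP4 against a median of 58.0% over 35116 such stretches. The GC box matched 2, 6 and 1 times in IGF1R, IGF2R and IGFBP4, and 42.6% of all stretches held at least 1 match. The E-box matched 3 times in IGF2R and the TATA box 1 time in IGFBP4, letters that 6.34% and 10.72% of all stretches held. INSR, which did not pass over all arrays, had 78.4% G and C and 4 GC box matches. IRS2 had 76.4% and 5 matches, and IRS1 had 80.8% and 4. Over its several starts GRB10, which was higher, ran from 30.4% to 81.6% G and C, with 0 to 3 matches. Over theirs, IGFBP2 ran from 56.4% to 69.2% and PIK3R1 from 39.6% to 81.6%. High G and C was thus not particular to the genes that were lower.

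The rest of the pathway was followed in 8 lists of 118 genes by role, of which 94 had a kept probe, read on the brightest. Of these, 10 rose and 25 fell, while over all 17379 genes, 11995 of them with a matched symbol, 16.8% rose and 18.0% fell. Together 37.2% of the pathway genes passed, against 34.8% of all genes. The median difference was -0.35 over the pathway genes and -0.06 over all genes. The split of directions hung on the scaling: 25 of 35 passing genes were lower here, 18 of 36 with the 75th percentile, 18 of 33 with quantile normalization and 4 of 5 with no normalization, and these scalings moved the median of all kept probes to 0.11, 0.045 and -0.31 from -0.091. Without replicate 5, 20 rose and 39 fell, against 26.3% and 29.0% of all genes. Without miR-1225-3p replicate 2 or 3 the number that passed was 15 and 17, and it was 19 to 22 without any one of scrambled replicates 1 to 4. Over all 20648 kept probes the number fell alongside, from 7225 to 2280 and 2555, and to between 3535 and 4010.

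**Figure D4:**
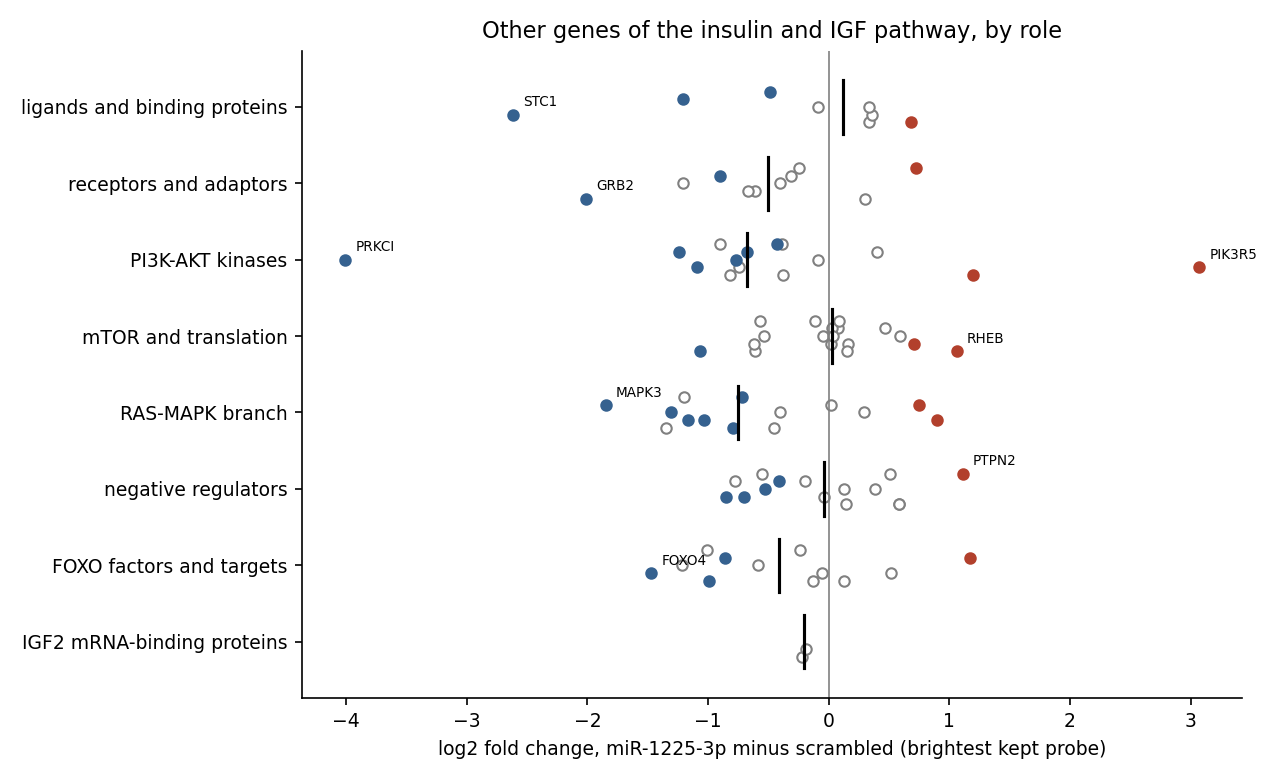
Log2 fold change, miR-1225-3p minus scrambled (horizontal axis), of the 94 other pathway genes with a kept probe, by role (rows; the vertical scatter within a row carries no value). Filled points have a limma adjusted p under 0.05, red higher and blue lower, open grey points do not, and each black bar is the median of its list; the RAS-MAPK and PI3K-AKT medians lie at -0.75 and -0.68, and that of mTOR and translation at 0.031.

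Among ligands and binding proteins 8 of 15 genes were tested, 1 rose and 3 fell. IGFBP7, a more distant member of the binding protein family, rose by 0.68 ± 0.126 (SE, limma adjusted p = 0.0144), and IGFBP5 fell by 1.21 on the log2 scale (SE 0.229, adjusted p = 0.0144). Without replicate 5 they differed by 0.70 and -1.33. The other 2 that fell were not well above background on all arrays: IGFBP6 (-0.49, or -0.54 without replicate 5) and STC1 (-2.62, or -3.08), which encodes stanniocalcin-1. Of the ligands, IGF1 gave 0.36 on its brightest probe (adjusted p = 0.0906), which passed without replicate 5 (0.46, adjusted p = 0.0106) and with the 75th percentile (0.71, adjusted p = 0.0314). The second IGF1 probe gave 0.15 (adjusted p = 0.468), and 0.11 without replicate 5. IGF2 gave 0.33 (adjusted p = 0.188, and -0.19 with no normalization) and 0.39 without replicate 5 (adjusted p = 0.113), and INS had no kept probe.

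Among receptors and adaptors 10 were tested, 1 rose and 2 fell. GRB14, a receptor-binding adaptor of the same family as GRB10, rose by 0.72 (SE 0.152, adjusted p = 0.015), its groups did not overlap, and the family's other member, GRB7, had no kept probe. GRB2, the adaptor that links receptors to RAS, fell by 2.01 (SE 0.446, adjusted p = 0.0158). SHC1, which hands the signal to GRB2, fell by 0.90 (SE 0.178, adjusted p = 0.0146) with no overlap between the groups, and differed by -0.46 with the 75th percentile (adjusted p = 0.0255). Without replicate 5 the differences were 0.81 for GRB14, -2.48 for GRB2 and -1.05 for SHC1.

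Of 15 PI3K and AKT genes 2 rose and 6 fell on their brightest probes. GSK3B, a kinase that AKT inhibits, fell by 0.68 (SE 0.161, adjusted p = 0.0173), and differed by -0.41 with the 75th percentile (adjusted p = 0.0446) and by -0.82 without replicate 5. AKT2 was -1.09 on its brightest probe (adjusted p = 0.0381) but 0.91 on its second (adjusted p = 0.0406), so no direction is given for the gene, which is counted among the 6 by its brightest probe. Without replicate 5 these values were -1.40 and 1.16, and with the 75th percentile the brightest probe did not pass (-0.75, adjusted p = 0.0543). AKT1 differed by -0.82 (adjusted p = 0.0572), and by -1.04 without replicate 5, where it passed (adjusted p = 0.00713). PIK3R5, a regulatory subunit of the PI3K gamma enzyme, gave 3.07 (adjusted p = 0.0146), and PRKCI, an atypical protein kinase C, gave -4.01 (adjusted p = 0.0233), with 3.55 and -4.96 without replicate 5. Both were named after their values were seen, and neither was well above background on all arrays. PIK3R2, the sister subunit of PIK3R1, fell by 0.43 (-0.47 without replicate 5) but was 0.068 higher with the 75th percentile.

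The RAS-MAPK list had 2 genes that rose and 6 that fell out of 14, with no gene whose groups stayed apart. HRAS fell by 1.31 (adjusted p = 0.027) and the kinase MAP2K2 fell by 1.17 (adjusted p = 0.0288), while the kinase BRAF rose by 0.90 (adjusted p = 0.0179). Without replicate 5 they differed by -1.67, -1.50 and 1.11. Of the 18 genes of mTOR and translation 2 rose and 1 fell: TSC1, an inhibitor of the mTOR complex, rose by 0.71 (adjusted p = 0.0145), RHEB, its activator, rose by 1.06 but was not well above background on all arrays, and AKT1S1, an mTOR inhibitor that AKT phosphorylates, fell by 1.07 (adjusted p = 0.0368). Without replicate 5 TSC1, RHEB and AKT1S1 differed by 0.81, 1.23 and -1.37. MTOR itself differed by -0.11 (adjusted p = 0.588), and by -0.20 without replicate 5 (adjusted p = 0.266).

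Of 15 negative regulators 1 rose and 4 fell. PTPN2, a phosphatase that acts on the insulin receptor, rose by 1.11 (SE 0.19, adjusted p = 0.0144) on its brightest probe and by 0.91 on another (adjusted p = 0.0152), while another still gave 0.066 (adjusted p = 0.715). SOCS1 fell by 0.85 (adjusted p = 0.0262) and the phosphatase INPP5D fell by 0.53 (adjusted p = 0.0241), and neither passed with the 75th percentile (-0.35, adjusted p = 0.185, and -0.056, adjusted p = 0.832). Without replicate 5 PTPN2, SOCS1 and INPP5D differed by 1.27, -0.95 and -0.55. Of 12 FOXO factors and targets 1 rose and 3 fell, among them CITED2, which fell by 0.86 (adjusted p = 0.0185) and differed by -0.99 without replicate 5. With the 75th percentile CITED2 did not pass (-0.40, adjusted p = 0.0973), and its second probe did not pass with cyclic loess (-0.78, adjusted p = 0.0789). FOXO1 gave -1.01 (adjusted p = 0.0617), and passed without replicate 5 (-1.20, adjusted p = 0.0244) and with the 75th percentile (-1.10, adjusted p = 0.0463). FOXO3 gave -0.13 on its brightest probe (adjusted p = 0.41, and 0.40 with the 75th percentile) and -0.11 without replicate 5 (adjusted p = 0.463). Another FOXO3 probe gave -0.095 (adjusted p = 0.54). Its dimmest kept probe passed as lower (-2.06, adjusted p = 0.0193, and -2.55 without replicate 5), so the probes disagreed. That dimmest probe was not well above background on all arrays. Neither of the 2 tested IGF2 mRNA-binding proteins passed.

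**Figure D5:**
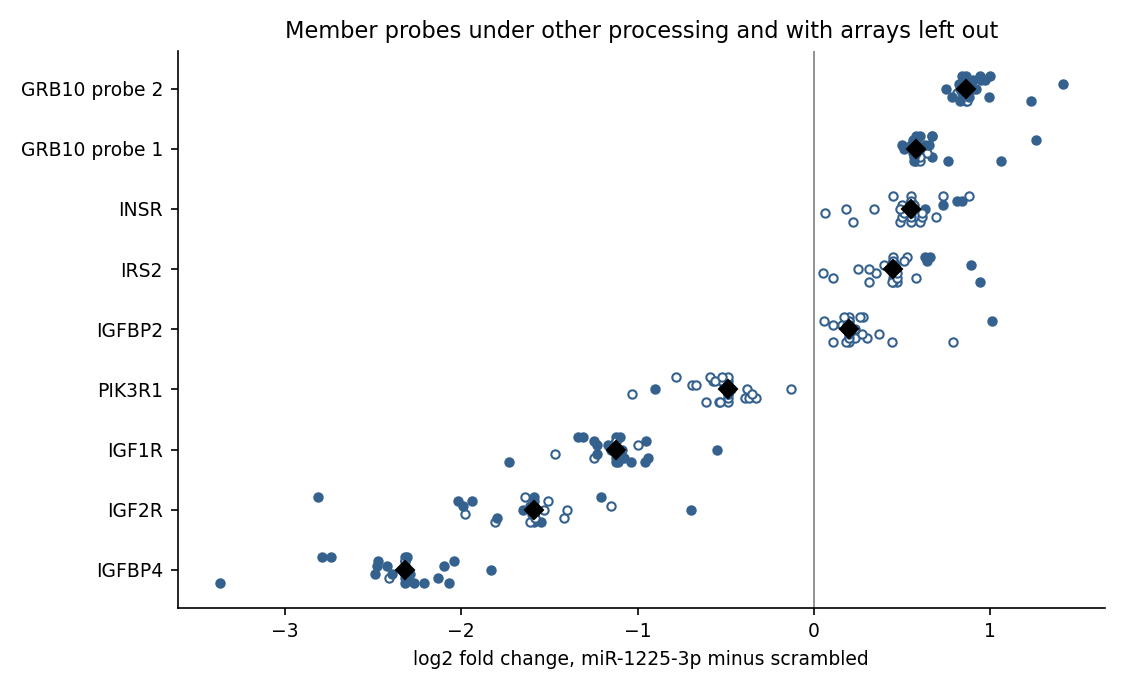
Log2 fold change, miR-1225-3p minus scrambled (horizontal axis), of the 9 tested probes as reported (black diamonds) and under 28 or 29 other settings (blue circles, filled where the adjusted p was under 0.05; the vertical scatter carries no value). No probe crossed 0: IGF1R ran from -1.73 to -0.55, IGFBP4 from -3.37 to -1.83, and the GRB10 probes from 0.50 to 1.26 and from 0.75 to 1.41.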

How the data were processed

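Gene expression was measured on 10 Agilent SurePrint G3 Human one-colour arrays, 5 per group, grouped by sample title (the source labels of the scrambled samples read as untreated). The deposited files hold scanner intensity values from Feature Extraction 10.7.3.1, per the file headers, already background-corrected by the authors' scanner software. The authors' deposited table of normalized log2 values was used as an alternative only. Its 29271 probes include all 11 described here, its values followed those computed here with r from 0.981 to 0.998 per array once each probe's mean was taken away, and its medians per array ran from 4.77 to 5.15. Depth has no meaning for arrays, where their number limits the precision.

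The members and gene lists were chosen with earlier results of these data known. The 58717 non-control spots of each array were log2-transformed and normalized by cyclic loess (3 iterations, limma 3.58.1 in R 4.3.3), as in the study's methods. Spots flagged as outliers were then left out, and spots of 1 probe were averaged. A probe was kept where 3 or more arrays of 1 group had it well above background. Groups were compared with limma's lmFit and eBayes over all 20648 kept probes with Benjamini-Hochberg adjustment at 0.05, and single probes also with a two-sided exact permutation test. P-values measure the spread between these 5 cultures per group. Genes were named through RefSeq accessions (24910 of 42405 probes matched a symbol; GRCh38.p14 for names and sequences, hg19 in the headers), 114 of the 118 listed pathway genes were on the array by their current symbol, and each was read on its brightest kept probe. In each list up to 2 of the largest rises and 2 of the largest falls were named, among genes that passed and were well above background on all 10 arrays; ligands, AKT1, AKT2, MTOR, FOXO1, FOXO3, SHC1 and GRB2 were named whatever their values. Some genes that the rule names are not reported here. The code was tested on simulated data. Alternatives were other scalings, background correction, filters, tests, slides as blocks and each array left out.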

Additional observations from a re-analysis of the deposited data

Results flagged for a closer look

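Of 18 sets of 5 arrays examined for the 9 tested probes, 2 held a value far from the other 4, by a test that marks about 1 set in 20 by chance, or 0.9 here. Both were on GRB10 probe 1: miR-1225-3p replicate 5, at a log2 signal of 11.08, lay below the other arrays of its group, and scrambled replicate 5, at 11.03, lay above the other arrays of its own. Without miR-1225-3p replicate 5 the GRB10 difference on this probe was 0.67 in place of 0.58. The cause was not tested.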

How the results depend on the processing

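No value changed direction among the 9 probes under the alternatives run, and IGFBP4 kept its call in 27 of 29. The IGF1R call was lost with no normalization between arrays (-1.47, adjusted p = 0.0902), with the replicate number as a block (-1.12, adjusted p = 0.0512) and within the second slide (-1.25, adjusted p = 0.501). It was also lost without miR-1225-3p replicate 2 or 3 (adjusted p = 0.0513 and 0.0504). With single arrays left out the IGF1R value ran from -1.34 to -0.95. The sample titles number the replicates and do not say whether same-numbered cultures were paired. Same-numbered arrays correlated from -0.402 to 0.0583 in their deviations. With so few arrays, and miR-1225-3p replicate 5 far from its group, this cannot settle the pairing. With the block 0 probes passed limma's test among the 9, the 94 pathway genes and all kept probes (8994 at an unadjusted p under 0.05). Without it, 5 probes, 35 pathway genes and 7225 probes passed. The methods' t-test gave 9874 probes unadjusted and 5481 after Benjamini-Hochberg adjustment. With no normalization 1 of the 9 probes, 5 pathway genes and 1224 probes passed. With array weights 8, 70 and 14673 passed. Within the second slide 0, 0 and 0 passed (1395 probes unadjusted), where it holds 3 arrays against 2. With the 75th percentile and without replicate 5, a setting chosen after seeing the data, 8, 63 and 12611 passed, and blocking on the slide without replicate 5, likewise, gave 58 pathway genes and 11500 probes. With no filter on dim probes 22 pathway genes and 4014 probes passed, where 42405 probes were tested. Leaving out single arrays gave 3 to 7 of the 9 probes, 15 to 59 pathway genes and 2280 to 11524 probes, fewest without miR-1225-3p replicate 2 (tied with replicate 3 for the 9 probes) and most without replicate 5. Of all passing probes 53.6% were lower, against 38.9% with the 75th percentile, 42.6% with quantile normalization and 85.8% with none. Except where stated, the cause was not tested. IRS1, and PIK3R1, INSR and IGF2R on some arrays, are limited by a signal near background.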
